A study of Rattus norvegicus with 3 samples.

Results

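The 10 genes described here are 7 genes of cell proliferation (Cdk1, Top2a, Ccnb1, Ccna2, Mki67, Pcna and Ccnd1) and the 3 cell cycle inhibitors of the Cip/Kip family (Cdkn1a, Cdkn1b and Cdkn1c). They were taken by gene symbol, or by a synonym reached through the accession in the scanner files, from probes that are not controls. All 10 were on the array, on 16 of its 30367 probes, among 17940 named genes. The array was hybridised with kidney RNA of male spontaneously hypertensive rats, bred on a Wistar background, aged 8 to 10 weeks and weighing 280 to 330 g. All groups were of this strain, and each began with 10 animals. One group received water by mouth for 4 weeks, and the others a hydrolysate of blue mussel protein at 10 mg/kg per day (the low dose) or at 20 mg/kg per day (the high dose). The RNA of 4 rats was pooled for each array and a group has only 1 array, so no test of a dose effect is possible, and every difference below describes these 3 arrays and these pools. Spread between spots of 1 probe on 1 array is technical and holds nothing of the spread between animals.

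Cells that divide pass through growth, DNA synthesis and mitosis in turn, driven by cyclins bound to cyclin-dependent kinases. Cyclin D1 acts in the first growth phase, cyclin A2 during DNA synthesis and after it, and cyclin B1 with Cdk1 at entry into mitosis. Inhibitors of the Cip/Kip family bind these kinases and hold cells in arrest, and Cdkn1a is a well known target of p53. Most tubule cells of the adult kidney are at rest, and a low share of cycling cells is usual in this tissue. In whole tissue, fewer cells of a type and less RNA per cell cannot be told apart.

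Genes of the late cell cycle often share promoter elements. The letters CCAAT are bound by the factor NF-Y. The element called CHR has TTTGAA as its common form and TTCGAA as a variant. It is bound by the DREAM complex, which holds such genes silent in resting cells. The RefSeq promoter table of the rat build GRCr8 held 7 of the 10 genes, and Ccna2, Ccnd1 and Cdkn1c were not among them. The sequences of the 4 mitotic genes found there are shown because they are the mitotic genes that the table holds. Each covers the 250 bases before the annotated start, 5′ to 3′ on the gene's own strand, and capitals mark, on either strand, the CCAAT letters, both forms of the CHR and the E2F-like letters TTTCGCGC.
Cdk1 (chr20:19265043-19265292, plus strand): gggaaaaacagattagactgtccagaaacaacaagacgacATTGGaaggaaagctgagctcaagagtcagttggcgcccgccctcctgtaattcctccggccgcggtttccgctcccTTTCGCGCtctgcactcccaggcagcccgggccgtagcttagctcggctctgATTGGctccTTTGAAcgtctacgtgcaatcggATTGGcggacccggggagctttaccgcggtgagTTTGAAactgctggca
Mki67 (chr1:199952594-199952843, minus strand): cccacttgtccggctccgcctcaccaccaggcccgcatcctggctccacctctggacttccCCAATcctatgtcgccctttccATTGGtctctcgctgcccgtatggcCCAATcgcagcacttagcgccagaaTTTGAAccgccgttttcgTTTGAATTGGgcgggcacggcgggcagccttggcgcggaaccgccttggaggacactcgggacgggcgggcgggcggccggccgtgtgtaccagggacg
Top2a (chr10:84473094-84473343, minus strand): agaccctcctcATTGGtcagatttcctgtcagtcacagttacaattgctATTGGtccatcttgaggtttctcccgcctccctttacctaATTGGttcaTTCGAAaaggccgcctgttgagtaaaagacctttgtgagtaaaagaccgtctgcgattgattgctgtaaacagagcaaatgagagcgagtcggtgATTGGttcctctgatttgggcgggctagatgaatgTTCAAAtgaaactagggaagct
Ccnb1 (chr2:33655226-33655475, minus strand): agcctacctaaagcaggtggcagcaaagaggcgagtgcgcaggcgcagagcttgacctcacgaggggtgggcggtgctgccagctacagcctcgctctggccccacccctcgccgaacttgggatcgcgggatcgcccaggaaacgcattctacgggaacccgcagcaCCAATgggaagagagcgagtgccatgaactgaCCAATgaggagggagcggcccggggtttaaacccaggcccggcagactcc

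CCAAT occurred 3 times in the Cdk1 window, 4 times in those of Mki67 and Top2a, and 2 times in that of Ccnb1. Of all 33469 rat promoters in the table, 11385 held CCAAT at least 1 time and 2.52% at least 3 times. Windows of Cdk1, Mki67 and Top2a also held TTTGAA, which 16.2% of all promoters did, and that of Top2a held TTCGAA, which 1.4% did. The last TTTGAA of Mki67 shares a base with a CCAAT on the other strand. CCAAT together with TTTGAA or TTCGAA was found in 3 of the 7 windows and in 6.31% of all promoters. TTTCGCGC was found in the Cdk1 window and in 0.248% of all promoters, while TTTGGCGC (0.412%) and TATAAA (12.9%) were in none of the 7. Both strands were read throughout. Of the other 3 windows, Cdkn1b held CCAAT 2 times, Pcna 1 time, and Cdkn1a held none of the letters searched. These matches describe the sequence and were not tested for binding.

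Intensities below are net of the background that the scanner software subtracted and are scaled to the 75th percentile of each array, in arbitrary units. Background was cleared, for a probe, if 50% or more of its spots reached a signal-to-noise ratio of 3. On the arrays of the water, low-dose and high-dose groups this held for 50.4%, 52.0% and 54.7% of probes. All 8 proximal tubule markers and all 6 thick ascending limb markers examined were above background on every array. Of the 10 genes, 7 were above background on all 3 arrays, Top2a only on the low-dose array, Ccna2 on the water and low-dose arrays, and Ccnb1 on none. A level is compared only within a probe, since probes differ in how brightly they bind. A 2-fold difference is used as a size threshold, and a gene counted only where its probe was above background on both arrays compared. Probes for 3 genes were printed on 10 spots each, and the other 13 probes on 1 spot.

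**Figure D1:**
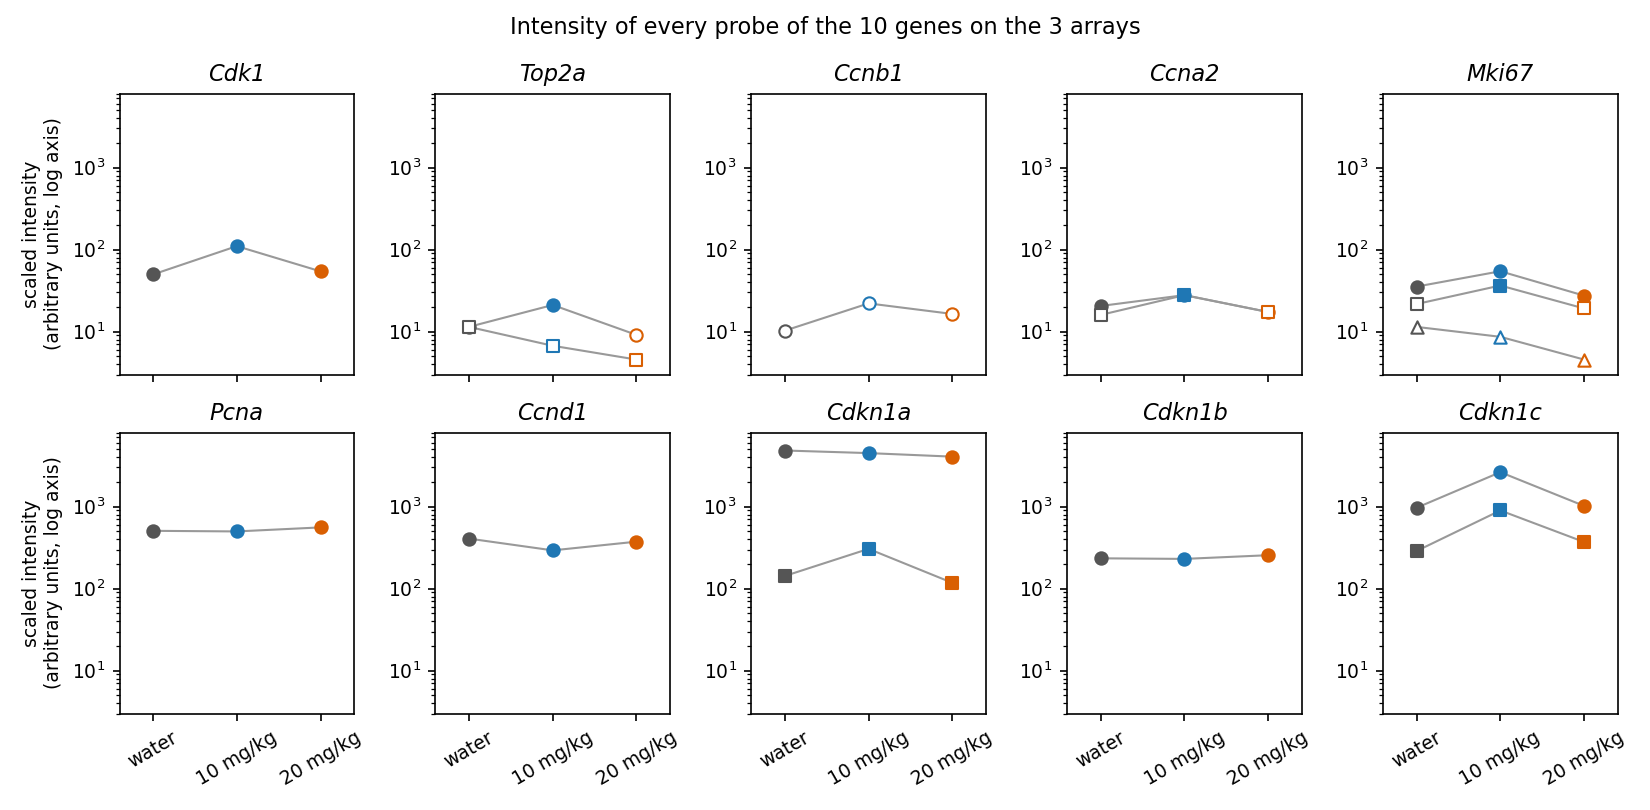
Scaled intensity (log axis, arbitrary units) of each of the 16 probes on the arrays of the water group, the 10 mg/kg group and the 20 mg/kg group. Each line is 1 probe, filled symbols are above background and open symbols are not, and Cdk1 and both probes of Cdkn1c peak on the 10 mg/kg array.

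Cdk1, the kinase that starts mitosis, was 2.21-fold higher at the low dose than on water. Cdkn1c, which encodes the inhibitor p57, was 2.72-fold higher. They were 2 of the 8 genes measured on both arrays, and 0 were 2-fold lower, while 2.50% of all 9734 genes measured were 2-fold higher and 0.668% 2-fold lower (3.16% in either direction). The median log2 difference of the 8 was 0.21, beside -0.11 over all genes. For the high dose against water, 0 of 7 measured genes passed 2-fold in either direction, where 0.849% of all 9891 genes were 2-fold higher and 0.152% 2-fold lower (1.00% in either direction). The 7 had a median of 0.075, beside -0.04 over all genes. Between the doses, 0 were 2-fold higher and the same 2 genes 2-fold lower at the high dose, 2 of 7 measured, where 0.464% of all 10137 genes were 2-fold higher and 1.48% 2-fold lower (1.94% in either direction). With so few genes these shares say nothing about the group as a whole. The comparisons share arrays, so the third follows from the first pair.

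Cdk1 was read on 10 spots. Its mean intensity was 49.8 ± 8.63 on water, 110.2 ± 12.4 at the low dose and 54.3 ± 5.76 at the high dose (SD over 10 spots of 1 pool). Spots ranged over 36.5 to 58.2 on water, 83.5 to 122.0 at the low dose and 43.8 to 62.9 at the high dose. Every low-dose spot was thus brighter than every spot of the other arrays, which overlapped each other. Spot by spot, the low dose minus water was 1.16 ± 0.18 (log2, SD over 10 spot pairs), with 10 of 10 higher. The high dose minus water was 0.14 ± 0.14, with 9 of 10 higher. The high dose minus the low dose was -1.02 ± 0.12, with 10 of 10 lower. Among all genes measured, 1.86% were at least as high at the low dose against water as Cdk1. The signal is dim, and with normexp background correction, which adds an offset of 50 to every spot, the low-dose difference was 0.60 and the difference between the doses -0.65, both under 2-fold. With a pseudocount of 16 they were 0.94 and -0.84.

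Mki67 encodes the nuclear protein Ki-67, which marks cycling cells. Its probe with 10 spots had a mean intensity of 35.4 ± 4.90 on water, 54.4 ± 11.4 at the low dose and 27.4 ± 4.74 at the high dose (SD over 10 spots). At the low dose 9 of 10 spots were brighter than on water, and the exception, at 25.9, was the dimmest low-dose spot. The log2 difference was 0.62 for the low dose minus water, short of 2-fold, and -0.37 for the high dose minus water, where 10 of 10 spots were lower. Between the doses it was -0.99, just under 2-fold, with 9 of 10 spots lower at the high dose. It passed 2-fold in 3 of the 10 alternative settings, quantile normalization (-1.08), the pixel median (-1.06) and the authors' deposited table (-1.11), which made 3 of the 10 genes 2-fold lower there in place of 2. A further probe, with 1 spot, was above background only at the low dose. It stood there at 36.5, which was 1.68 times its below-background reading of 21.7 on water. The third Mki67 probe was above background nowhere. It read 11.4 on water, 8.64 at the low dose and 4.56 at the high dose, and so was not highest at the low dose. Normexp gave 0.19 for the low dose minus water and -0.46 between the doses on the probe with 10 spots. On the probe above background only at the low dose, the low dose minus water was 0.75. There normexp gave 0.15 and a pseudocount of 16 gave 0.48.

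**Figure D2:**
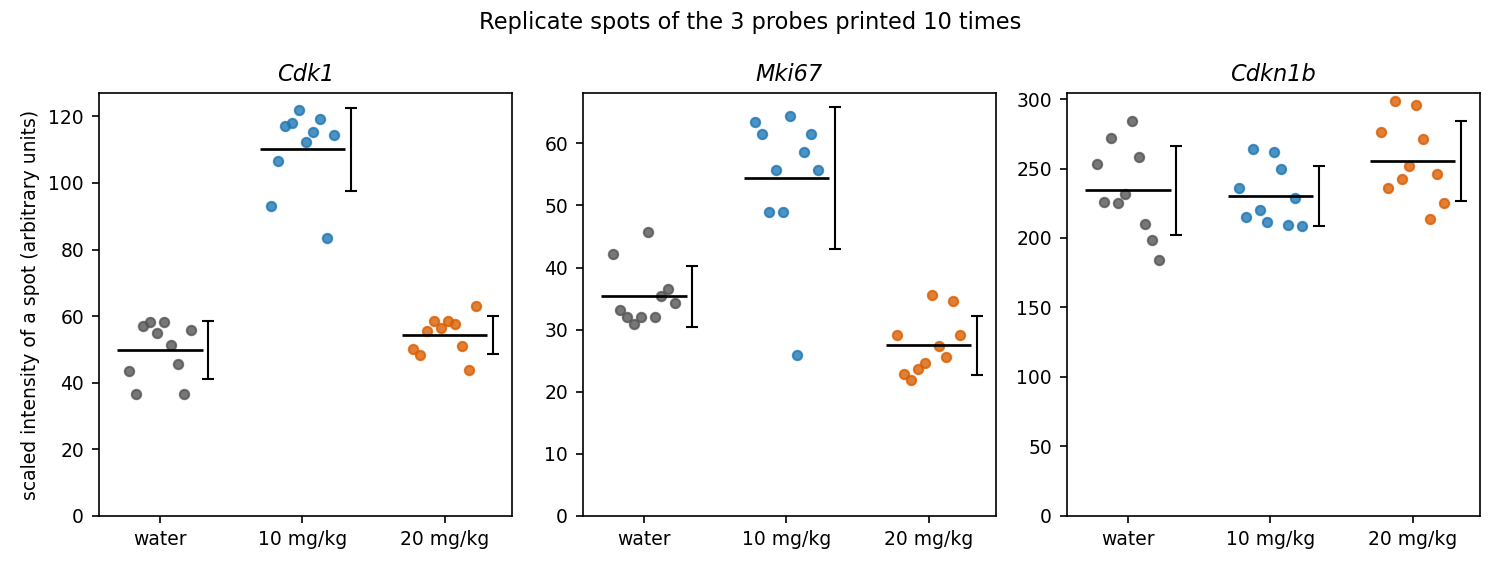
Scaled intensity (arbitrary units) of each of the 10 spots of the Cdk1, Mki67 and Cdkn1b probes on the water, 10 mg/kg and 20 mg/kg arrays, with the mean as a line and the SD over spots as a bar. Cdk1 spots of the 10 mg/kg array lie at 83.5 to 122.0, above all others, while Cdkn1b spots of the 3 arrays overlap.

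The other mitotic genes were near the limit of detection. Top2a, the topoisomerase that untangles DNA before mitosis, had a probe above background only at the low dose. That probe read 11.4 on water, 21.1 at the low dose and 9.12 at the high dose. Its low-dose reading was 1.54 times 13.7, the lowest level above background of any probe on the water array. It was 2.32 times the probe's own reading at the high dose, where the lowest level above background was 8.21. Neither ratio is a lower bound, since some brighter probes did not clear background, such as that of E2f6 at 43.4 on water. The other Top2a probe was above background on no array and ran the other way, at 11.4, 6.72 and 4.56. Ccna2, cyclin A2, gave 20.5 on water and 27.8 at the low dose on its brighter probe, a log2 difference of 0.44, where the technical SD of probes this dim was 0.19. At the high dose that probe read 17.3, below background. A different Ccna2 probe read 15.98, 27.8 and 17.3 and was above background only at the low dose. Its reading there was 1.74 times its below-background reading on water, a log2 difference of 0.80. Under normexp the first of these Ccna2 probes gave -0.028 in place of 0.44, and the second 0.049 in place of 0.80. With a pseudocount of 16 the second gave 0.455. Ccnb1, cyclin B1, read 10.3, 22.1 and 16.4, not above background on any array, so no fold is given.

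Pcna and Ccnd1, which act earlier in the cycle, did not have their highest reading at the low dose. Pcna, the sliding clamp of DNA polymerase, read 506.9 on water, 498.4 at the low dose and 558.2 at the high dose, with log2 differences of -0.024 for the low dose and 0.14 for the high dose against water. Probes of this brightness had a technical SD between spot pairs of 0.098 and 0.097, so only the high-dose difference exceeded it. Ccnd1, cyclin D1, read 407.5 on water, 292.9 at the low dose and 374.0 at the high dose. Its log2 difference was -0.48 at the low dose against water, several times the technical SD of 0.098 but under 2-fold, and 8.58% of all genes measured were at least as low. For the high dose it was -0.12 against water and 0.35 against the low dose. Ccnd1 therefore had its lowest reading on the array where Cdk1 had its highest. Its sign was the same in all 3 comparisons under each of the 10 alternative settings tried.

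Of the 3 inhibitors, only Cdkn1c passed 2-fold on the probe that represents the gene. Its brighter probe read 968.1 on water, 2631 at the low dose and 1020 at the high dose, and its other probe 287.7, 898.0 and 370.3. The low dose minus water was 1.44 and 1.64 (log2) on the 2 probes, a 2.72-fold and a 3.12-fold difference, where probes of this brightness had a technical SD of 0.10. The probes carry different transcript accessions of the gene. Of the 9734 genes measured, 1.04%, Cdkn1c included, were as high or higher. For the high dose against water the probes gave 0.075 and 0.36, the first within the technical SD of 0.097 and the second above it. Between the doses they gave -1.37 and -1.28, with 0.552% of all genes at least as low as the first. Over the 10 alternative settings the low-dose difference of Cdkn1c lay between 1.43 and 1.54 and that between the doses between -1.39 and -1.32, past 2-fold in each.

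Cdkn1c is known in the mature kidney for its expression in podocytes, the filter cells of the glomerulus. Of 8 podocyte markers, 7 were measured, and 6 were lower and 1 higher at the low dose than on water, with a median log2 difference of -0.17. Among all genes measured, 35.6% were higher and 64.3% lower at the low dose than on water (median -0.11), and 2.50% were 2-fold higher. At the high dose 43.6% of all genes were higher and 56.4% lower than on water. The podocyte markers had a summed intensity of 2241 on water, 1964 at the low dose and 1795 at the high dose. Such sums run over probes that bind unequally, so the brightest probes of a set weigh most in them. Markers of other cell types are given next. The part of podocytes or of any other cell type in the Cdkn1c, Cdk1 and Mki67 differences was not tested. The 7 fibroblast markers summed to 3564, 10960 and 3869 on water, the low dose and the high dose, with 6 of 6 measured markers higher at the low dose than on water, 5 of them past 2-fold, and Lum above background on no array. The 10 macrophage markers summed to 2557, 5385 and 2610, with 8 of 9 measured higher at the low dose and 4 past 2-fold, and Mrc1 above background on no array. Lymphocyte markers summed to 359.0, 521.7 and 396.2, with 3 of 3 measured higher at the low dose, 2 past 2-fold, while Cd3e, Cd8a, Cd79b and Ms4a1 were above background on no array. Adipocyte markers summed to 250.9, 4071 and 1927, so their sum was higher at both doses than on water. Of these 6 markers, 4 were measured and all 4 were higher at both doses, with Plin1 and Lep above background on no array. Proximal tubule markers summed to 78430, 62960 and 59140, with 8 of 8 lower than on water at both doses. Thick ascending limb markers summed to 46200, 33530 and 39440, with 5 of 6 lower at the low dose than on water. At the high dose 4 of those 6 were higher than on water, and 6 of 6 were higher than at the low dose. Endothelial markers summed to 3676, 3634 and 3331, of which Kdr alone read 2387, 2375 and 2177. Blood markers summed to 14730, 17540 and 18260, of which Hbb alone read 13580, 16570 and 16860. Collecting duct principal cell markers summed to 15930, 38170 and 24760, with 4 of 6 higher than on water at both doses. Aqp2 alone read 12200, 30810 and 18760, while Scnn1g and Scnn1b were lower than on water at both doses.

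Cdkn1a, which encodes p21, had 2 probes with the same transcript accession that differed. The brighter probe, A_64_P123895, read 4833 on water, 4493 at the low dose and 4068 at the high dose. Its log2 differences against water were -0.11 at the low dose and -0.25 at the high dose. The other, A_44_P914438, read 142.7, 305.4 and 117.7, and so was 2.14-fold higher at the low dose than on water. Its log2 difference was 1.098 at the low dose against water, -0.28 at the high dose against water and -1.38 between the doses. The gap between the probes at the low dose was 1.20, and only 19 of 1255 genes with at least 2 measured probes (1.51%) had a gap of 1 or more there. The gap for the high dose against water was 0.03. The dimmer probe thus followed the profile of Cdk1 and Cdkn1c and the brighter one did not, and neither can be preferred from these files. Averaged over its probes Cdkn1a stood at 0.50 for the low dose minus water and -0.76 between the doses. The dimmer probe was past 2-fold at the low dose in 7 of 8 alternatives run on it, the exception being normexp at 0.86.

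Cdkn1b, which encodes p27, differed least from water of the 3 inhibitors at the low dose. Its probe with 10 spots had a mean intensity of 234.3 ± 32.3 on water, 230.5 ± 21.6 at the low dose and 255.7 ± 28.7 at the high dose (SD over 10 spots), and the spots of the 3 arrays overlapped. Spot by spot, the low dose minus water was -0.016 ± 0.12 (log2), with 8 of 10 lower. The high dose minus water was 0.13 ± 0.097, with 10 of 10 higher, a difference of 1.09-fold that 28.7% of all genes equalled or exceeded. The high dose minus the low dose was 0.15 ± 0.064, again with 10 of 10 higher.

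**Figure D3:**
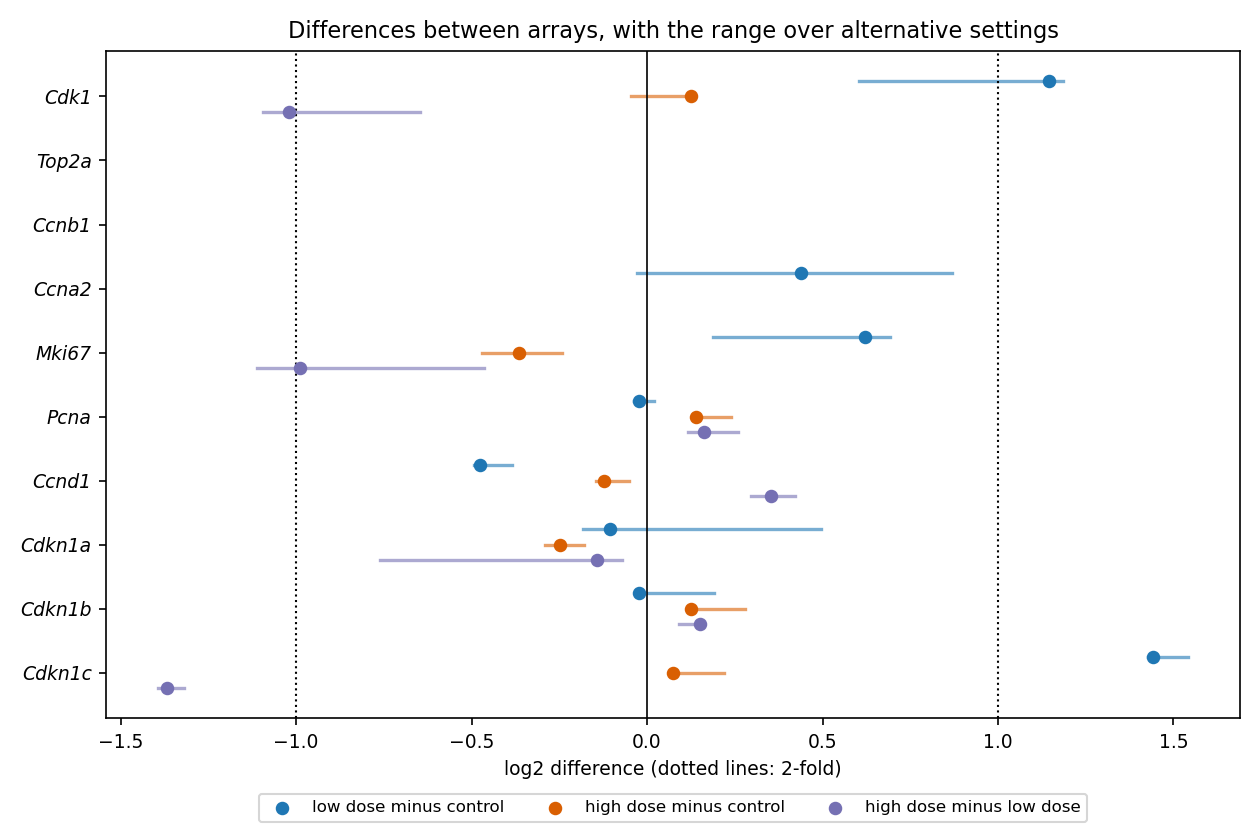
Log2 differences between arrays for each gene above background on both arrays compared. Points are the values reported and bars the range over 10 alternative settings, dotted lines mark 2-fold, and Top2a and Ccnb1 have no point. Cdkn1c lies past 2-fold at the low dose over its whole range, while the range of Cdk1 reaches 0.60.

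The same comparison was made over a wider list of 136 cell cycle genes, the 10 included, of which 133 were on the array. At the low dose against water 76 were measured, 41 higher and 35 lower, with 4 past 2-fold upward (5.26%, beside 2.50% of all genes) and 0 downward. The median log2 difference was 0.045, beside -0.11 over all genes. The 4 were Cdk1, Cdkn1c and the p53 targets Bbc3, which encodes the cell death protein PUMA, and Plk3, a stress-responsive kinase. With the 10 genes left out, 2 of the 68 measured (2.94%) were past 2-fold upward, close to the 2.50% of all genes. Bbc3 read 51.4 on water, 117.2 at the low dose and 90.3 at the high dose, and Plk3 19.4, 43.2 and 30.1, each on 1 spot. Normexp left only Cdkn1c past 2-fold, with Bbc3 at 0.67 and Plk3 at 0.27. The median of the 16 p53 targets measured was -0.017, with 7 higher and 9 lower.

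Against water, the high dose had 74 genes of the list measured, 32 higher and 42 lower, with 1 past 2-fold upward (1.35%, beside 0.849% of all genes) and 0 downward, and a median of -0.055. The 1 gene was Cdc25b, a phosphatase that activates Cdk1. It read 57.1 on water, 95.1 at the low dose and 119.5 at the high dose, but its other probe read 39.96, 33.6 and 36.5. Normexp put its high-dose difference at 0.60. Between the doses 77 were measured, with 29 higher and 48 lower at the high dose. Of these, 4 were past 2-fold downward (5.19%, beside 1.48% of all genes), 0 upward, and the median was -0.11, beside 0.038 over all genes. Besides Cdk1 and Cdkn1c these were Plk1, a mitotic kinase, and Rrm2, a subunit of the enzyme that makes deoxynucleotides. With the proliferation genes and Cip/Kip inhibitors described first left out, 70 list genes were measured. Of those 70, only Plk1 and Rrm2 (2.86%) were past 2-fold downward, beside 1.48% of all genes. Plk1 read 34.2 on water, 60.5 at the low dose and 28.3 at the high dose, and Rrm2 121.0, 191.1 and 87.6. Normexp gave -0.49 for Plk1 and -0.84 for Rrm2 between the doses.

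By role, the median log2 difference of G2 and mitosis genes was 0.15 at the low dose against water, with 16 of 24 measured higher, and of -0.17 between the doses, with 17 of 23 lower at the high dose. DNA replication genes gave 0.15, with 10 of 14 higher, and -0.20, with 11 of 15 lower. Among all genes measured, 35.6% were higher at the low dose than on water (median -0.11) and 44.9% were lower at the high dose than at the low dose (median 0.038). For the Rb, E2F and checkpoint genes the median was -0.21 at the low dose against water, with 10 of 13 lower, where 64.3% of all genes were lower. They also had 10 of 13 lower at the high dose than on water, where 56.4% of all genes were lower. For G1 cyclins and kinases the low dose minus water gave a median of -0.038, with 2 of 5 measured higher, and 0.15 between the doses, with 5 of 5 higher at the high dose. The 5 CDK inhibitors measured had a median of 0.19 for the low dose minus water, with 3 higher, and of -0.21 between the doses, with 4 lower at the high dose. These counts are small and the lists overlap in Cdkn1a.

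**Figure D4:**
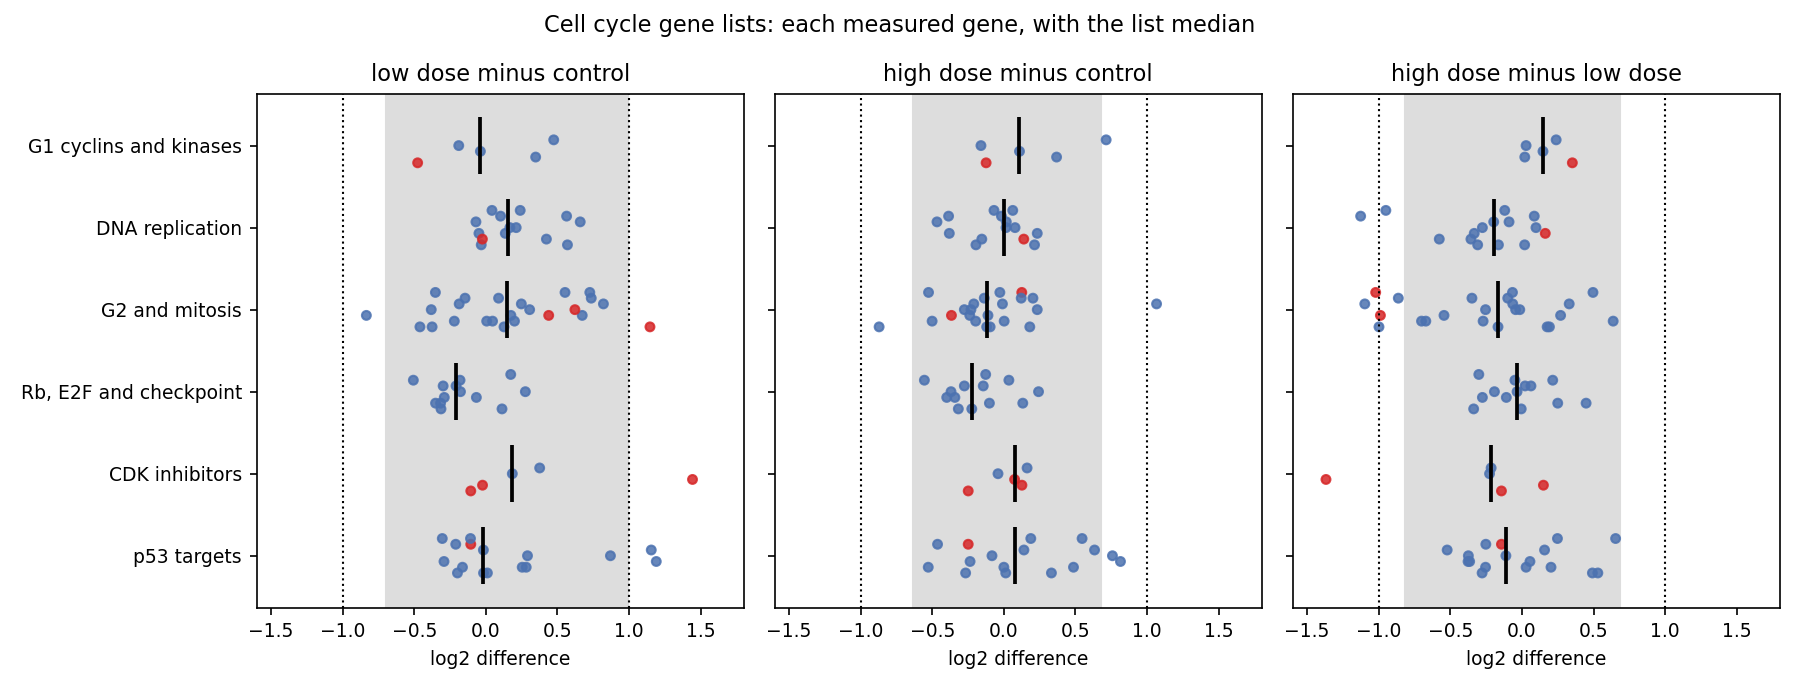
Log2 difference of each measured gene of the 6 cell cycle lists in the 3 comparisons, with the 10 genes in red, other genes in blue and the list median as a black line. Grey bands hold the central 95% of all genes measured, and dotted lines mark 2-fold. At the low dose against water Cdk1, Cdkn1c, Bbc3 and Plk3 lie above the band and Melk, a G2 and mitosis gene, below it.

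Detection was also counted by array. Of the 133 genes of the list, 8 (6.02%) cleared background at the low dose only, 2 (1.5%) on water only and 0 at the high dose only. Among all 17940 genes these shares were 1.31%, 0.385% and 2.55%. Of the 8, 6 belong to the G2 and mitosis list: Top2a, Birc5, Kif20a, Prc1, Spc25 and Ckap2, which serve chromosome separation and the spindle. The other two were Ccne1, cyclin E1, and E2f6. Clearing background did not always go with a higher reading. Birc5 read 22.1 at the low dose, against 23.97 on water, and E2f6 read 30.7 at the low dose, against 43.4 on water. The other 6 read higher at the low dose than on water. The genes seen only on water were Cdk6 and Kif23. Such genes sit at the edge of detection, and their numbers are too few for more than a description.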

How the data were processed

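The members and gene lists were chosen with earlier results of these data known. Net intensities of spots at 532 nm were deposited as read by GenePix Pro 6.1.0.4 per the file headers, with a background of 39 (water and high dose) or 40 (low dose) subtracted and no normalization. The signal-to-noise ratio and flag of a spot were deposited as a score. A percent of saturated pixels was deposited for each spot. An alternative used log2 values deposited by the authors, whose scaling method was not given in sources used here. Agilent Feature Extraction appears in the submitters' processing notes. The high-dose header names a mouse design, but all 45220 spots carry the same probes as the other arrays. All arrays carry the same slide barcode per the file headers, and the place of an array on it cannot be told apart from its group.

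Control spots, spots not found but bright (6, 5 and 6 on the water, low-dose and high-dose arrays) and spots whose pixel mean and median differed over 1.5-fold (166, 139 and 80) were left out. This removed 0 spots of the 10 genes. Net means were averaged per probe, scaled to the 75th percentile (factors 1.14, 0.96 and 0.912) and taken as log2 above a floor of 1. Of the 16 member probes, 14 were named by accession and 2 by symbol through RefSeq (GRCr8). Each gene takes the probe that cleared background on the most arrays and, among equals, the brightest one. All 10 genes are named, and from the wider list up to 4 genes past 2-fold per list, direction and comparison. With 1 array per group, a 2-fold size rule stands in place of a test. Python 3.11.15, pandas 2.3.3 and, for normexp, limma 3.58.1 were used. The number of arrays limits the precision.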

Additional observations from a re-analysis of the deposited data

How the results depend on the processing

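With 1 pool per group, no array could be left out and no paired analysis was possible because there are no replicates. Of 220 log2 differences of the 10 genes under 10 alternatives (9 planned, and adjustment for position on the slide, chosen after seeing the data), 48 equalled the reported value, 153 moved within the technical spread between spots and 19 moved beyond it, and none past 2-fold changed sign. Some could not move by construction, since no filter keeps the same probe (22 equal) and a mean over probes alters nothing where 1 probe was measured (16 equal). Normexp left 1 gene, Cdkn1c, 2-fold higher at the low dose against water and 1 lower between the doses, as did a pseudocount of 16. On the wider list either setting also left 1 and 1, and 0 at the high dose against water. Normexp put the median of the 10 genes at 0.0039 for the low dose and -0.045 for the high dose against water. Without the filter on dim probes that median was 0.53 for the low dose against water and -0.56 between the doses. Averaging over probes made it 0.47 and -0.76, and the authors' deposited table made it 0.41 (log2) at the low dose. On the wider list, no filter gave 12 genes higher and 5 lower at the low dose against water, 9 and 10 at the high dose against water, and 5 and 12 between the doses. At the high dose against water, 2 list genes were higher with the pixel median or the authors' deposited table, 0 with the mean over probes, and 1 was lower after position adjustment. Between the doses 8 were lower in the authors' deposited table. Leaving out the weak corner of the water array touched 0 spots of the 10 genes. Causes were not tested.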
